A study of Caenorhabditis elegans with 24 samples.

Results

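The genes described here are the germline Notch receptor gene glp-1 of Caenorhabditis elegans and 5 genes that act with it to keep germline stem cells dividing: lag-1, lst-1, sygl-1, fbf-1 and fbf-2. They were chosen by name for their place in that pathway, with earlier results of these data known. All 6 were measured, among 17118 genes represented on the arrays. In all, 9 of the 22548 probe sets are annotated to them: a set of its own for each gene, a second set for lag-1, a second set for fbf-2, and a set annotated to both fbf-1 and fbf-2. Whole young adults, 24 h past the vulval crescent stage of the last larval instar and reared at 25°C, were compared on 24 single-channel arrays in 6 groups of 4. The groups were glp-1 mutants with and without UVC, xpa-1 mutants with and without UVC, and wild-type N2 with and without UVC. The glp-1 animals carry a point mutation (strain JK1107) and the xpa-1 animals a deletion (strain RB864, outcrossed 3 times); xpa-1 encodes a nucleotide excision repair factor. Exposed animals received 50 J/m2 of UVC with an emission peak at 254 nm and were frozen 3 h later. Each group was measured on 2 arrays in 2007 and 2 in 2008. Each sample was a frozen pellet of many pooled whole animals, so fewer germ cells and less RNA per germ cell cannot be told apart.

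GLP-1 is a receptor on the surface of germ cells at the distal end of the gonad. The somatic distal tip cell presents the ligand LAG-2, the receptor is cut by proteases, and its intracellular part enters the nucleus, where it joins the DNA-binding protein LAG-1 to switch on target genes. In the germ line the direct targets lst-1 and sygl-1 are needed for stem cell maintenance, and their products work with the PUF-family RNA-binding proteins FBF-1 and FBF-2, which repress messenger RNAs that drive entry into meiosis, such as gld-1. When GLP-1 signalling is lost, germ cells leave the mitotic cycle, and temperature-sensitive glp-1 mutants raised at a restrictive temperature form few germ cells.

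Levels are given as log2(normalized intensity + 32), a scale on which 5.00 is the lowest possible value, and differences of low signals are understated because of the added constant. Differences come from a limma fit over all 24 arrays with a term for year, and a gene passes where p, adjusted over the 22548 probe sets, is under 0.05. The 2007 and 2008 arrays differed in signal: median deposited intensities were 68.9 to 191 on the 2008 arrays and 4.24 to 8.42 on the 2007 arrays, and arrays of the same group and year had Spearman correlations across probe sets of 0.95 to 0.97 in 2008 and 0.75 to 0.88 in 2007. Precision is limited by the number of arrays: a contrast of 2 groups had a standard error of 0.33 in the median. Whether replicates grew as separate cultures is not stated, and if they did not, the p-values reflect technical spread alone. As a check of the strains, the xpa-1 transcript lay between 5.00 and 6.59 in the xpa-1 arrays and between 8.92 and 10.07 in the N2 arrays; the glp-1 lesion cannot be checked this way, because a changed base leaves the probed transcript in place. Array values below are listed in the order 2008 replicates 1 and 2, then 2007 replicates 1 and 2.

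In glp-1 mutants 5 of the 6 transcripts were lower than in N2: those of the receptor, its transcription factor, the target lst-1 and both FBF proteins. Between controls the log2 difference was -4.89 for glp-1, -3.55 for lst-1, -3.28 for fbf-2, -3.12 for fbf-1 and -1.48 for lag-1. The sixth gene, sygl-1, stood near the lowest possible value in every strain. Of all probe sets 18% were lower in this comparison, and 8 of the 9 probe sets of these genes were. The called differences lay on the same side in 4 of 4 glp-1 arrays, each set against the N2 mean of its year.

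The receptor gene glp-1 (probe set 191458_s_at) was at 7.39, 5.43, 5.52 and 5.16 in the UV-exposed glp-1 arrays, and at 5.58, 5.00, 6.86 and 5.11 in the glp-1 control arrays. It was at 10.66, 10.62, 10.65 and 11.15 in UV-exposed xpa-1, and at 10.74, 10.63, 10.40 and 10.63 in xpa-1 controls. In N2 it was at 10.66, 10.90, 10.44 and 11.13 after UV and at 10.58, 10.56, 10.40 and 10.57 in controls. The 8 glp-1 arrays thus lay between 5.00 and 7.39 and the 16 others between 10.40 and 11.15, with an empty span of 3.00 between them. For this set and those below, the share of all probe sets that separate the strains in this way is not given here. Separation is therefore not to be read as particular to these genes. Its mean level was 5.64 ± 0.85 in glp-1 controls and 10.53 ± 0.09 in N2 controls (SD, n = 4 each), a difference of -4.89 (SE 0.40, limma adjusted p = 6.27e-09). After UV the difference was -4.91 (SE 0.40, limma adjusted p = 5.90e-09). The spread within the glp-1 groups was wider than within N2 controls, and 1 glp-1 array, UV 2008-1, stood above the other 3 of its group. That array also had the highest summed signal of 23 germ line marker genes among the glp-1 arrays, 3281, against 1701 to 2694 in the other 7. The other arrays did not follow that order. Control 2008-2 had a sum of 2694 with glp-1 at 5.00, and control 2007-1 a sum of 2187 with glp-1 at 6.86. Without array UV 2008-1 the UV difference was -5.44 (SE 0.31, limma adjusted p = 1.01e-10).

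LAG-1, the DNA-binding partner of the cleaved receptor, is also used by the second Notch receptor LIN-12 in somatic cells. Its brighter probe set (175617_at) was at 10.07, 10.13, 10.39 and 10.36 in UV-exposed glp-1 arrays and at 10.13, 9.74, 10.50 and 10.07 in glp-1 controls. In xpa-1 it was at 11.39, 11.36, 12.05 and 12.32 after UV and at 10.86, 11.58, 12.34 and 11.52 in controls. In N2 it was at 10.96, 11.12, 11.38 and 11.77 after UV and at 11.62, 10.88, 11.71 and 12.13 in controls. All 8 glp-1 arrays lay below all 16 others, but the gap was only 0.36, and the lag-1 signal in glp-1 arrays stayed well above the lowest possible value. The mean was 10.11 ± 0.31 in glp-1 controls and 11.58 ± 0.52 in N2 controls (SD, n = 4 each), a difference of -1.48 (SE 0.21, limma adjusted p = 1.16e-05). The second lag-1 set (192000_s_at) was dimmer, at 6.63 ± 1.34 in glp-1 controls and 8.59 ± 0.67 in N2 controls, and gave -1.95 (SE 0.29, limma adjusted p = 1.45e-05). On that set the strains overlapped over all arrays, 5.47 to 8.25 in glp-1 and 6.88 to 9.32 in the others. They overlapped in 2007 too, but in 2008 the glp-1 arrays at 7.67 to 8.25 lay below the others at 9.05 to 9.32.

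Among the transcriptional targets of the receptor, lst-1 (178942_s_at) encodes a stem cell factor that binds FBF. It was at 6.99, 7.11, 6.34 and 5.25 in UV-exposed glp-1 arrays, and at 6.56, 6.68, 5.62 and 7.62 in glp-1 controls. The xpa-1 arrays had 10.50, 10.63, 9.96 and 10.46 after UV, and 10.49, 10.63, 10.13 and 9.96 in controls. The N2 arrays had 10.48, 10.57, 9.99 and 10.17 after UV, and 10.44, 10.50, 9.81 and 9.94 in controls. No glp-1 array came within 2.19 of any array of the other strains. The control means were 6.62 ± 0.82 in glp-1 and 10.17 ± 0.35 in N2 (SD, n = 4 each), a difference of -3.55 (SE 0.32, limma adjusted p = 2.45e-08).

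The other target, sygl-1 (179181_at), works with lst-1 in a redundant manner. Its level was 5.38 ± 0.53 in UV-exposed glp-1, 5.06 ± 0.09 in glp-1 controls, 5.00 ± 0.00 in UV-exposed xpa-1, 5.24 ± 0.35 in xpa-1 controls, 5.19 ± 0.37 in UV-exposed N2 and 5.41 ± 0.54 in N2 controls (SD, n = 4 each). The normalized intensity was 0 in 4 of 8 glp-1 arrays and in 11 of 16 others, and the highest array reached 6.13. The difference between glp-1 and N2 controls was -0.35 (SE 0.24, 95% interval -0.85 to 0.14, limma adjusted p = 0.2729). A strain difference in sygl-1 was therefore not detectable with this probe set, which gave little signal even in animals with a germ line.

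FBF-1 and FBF-2 are close paralogs, and in the supplied annotation (WBcel235) their genes lie near each other on chromosome II with 5 annotated genes between them. For fbf-1 (190187_at) the values were 5.23, 5.06, 5.11 and 6.04 in UV-exposed glp-1 arrays and 5.49, 5.38, 5.36 and 5.98 in glp-1 controls. In xpa-1 the fbf-1 values were 8.29, 8.51, 8.47 and 8.98 after UV and 7.85, 8.08, 8.60 and 8.86 in controls. N2 had fbf-1 at 8.29, 8.66, 9.21 and 8.89 after UV and at 8.26, 8.30, 8.94 and 9.20 in controls. The glp-1 arrays and the others were 1.81 apart at their nearest. The control means were 5.55 ± 0.29 in glp-1 and 8.68 ± 0.47 in N2 (SD, n = 4 each), a difference of -3.12 (SE 0.20, limma adjusted p = 1.89e-10).

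For fbf-2 (173696_at) the values were 5.85, 6.26, 7.31 and 5.00 in UV-exposed glp-1 arrays and 5.59, 6.13, 5.10 and 6.81 in glp-1 controls. In xpa-1 they were 9.47, 9.51, 9.01 and 8.29 after UV and 9.20, 8.11, 9.48 and 8.70 in controls. N2 had fbf-2 at 9.66, 9.31, 9.05 and 8.73 after UV and at 9.21, 9.61, 8.73 and 9.22 in controls. Again no glp-1 array reached the others, the nearest pair being 0.81 apart. The control means were 5.91 ± 0.74 in glp-1 and 9.19 ± 0.36 in N2 (SD, n = 4 each), a difference of -3.28 (SE 0.44, limma adjusted p = 4.30e-06). The second fbf-2 set (188611_s_at) gave -2.42 (SE 0.38, limma adjusted p = 3.24e-05), with glp-1 arrays at 5.00 to 6.90 against 6.93 to 8.69 in the others. The set annotated to both genes (190188_s_at) was at 5.18 ± 0.14 in glp-1 controls and 9.02 ± 0.19 in N2 controls and gave -3.84 (SE 0.20, limma adjusted p = 1.00e-11). How far the sets of one paralog pick up the other transcript was not tested.

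**Figure D1:**
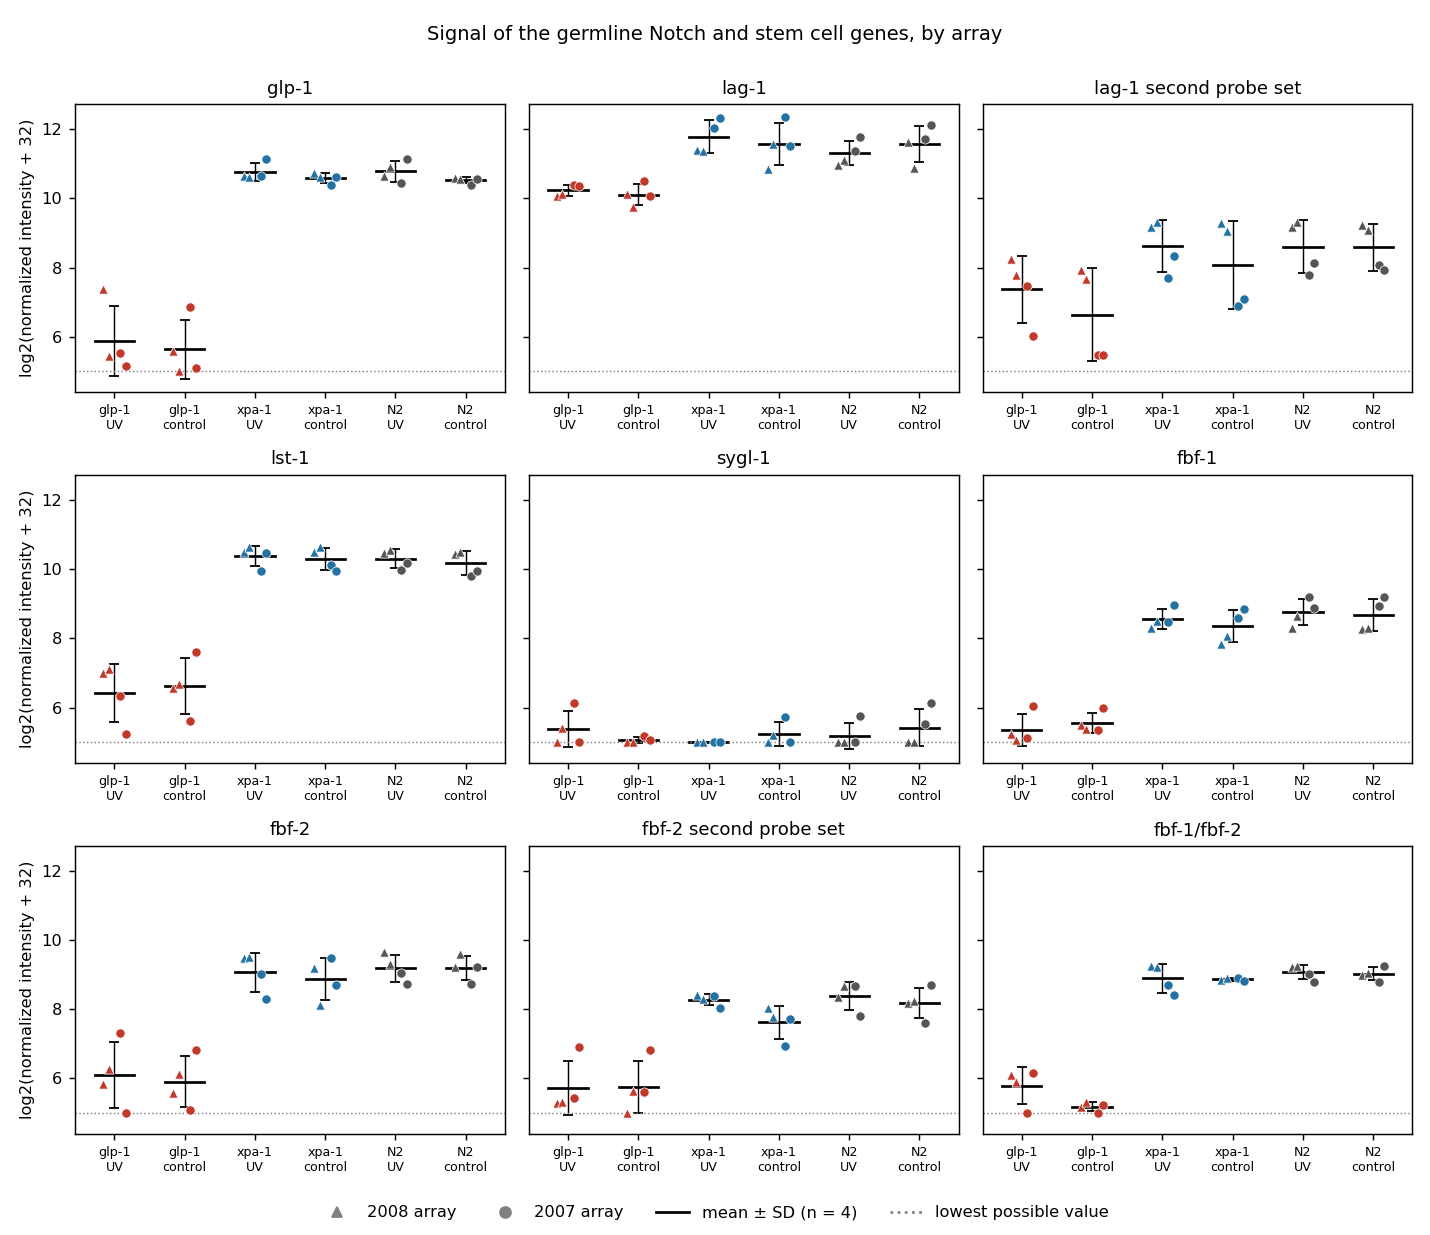
Level of each of the 9 probe sets on the 24 arrays, as log2(normalized intensity + 32), by strain and treatment (points are arrays, triangles 2008 and circles 2007; bars are mean ± SD, n = 4; the dotted line is the lowest possible value, 5.00). The 8 glp-1 arrays lie below the 16 others for every set except the second lag-1 set, which overlaps, and sygl-1, which is near 5.00 in all groups. The share of all probe sets that separate in this way is not given here.

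The same 5 genes were lower in the other comparisons of glp-1 with a strain that has a germ line. After UV, 19.5% of all probe sets were lower in glp-1 than in N2. There the differences were -4.91 for glp-1, -3.88 for lst-1, -3.40 for fbf-1, -3.08 for fbf-2 and -1.07 for lag-1 (limma adjusted p = 3.84e-04 for lag-1, smaller for the other 4), while sygl-1 gave 0.19 (limma adjusted p = 0.5634). Against xpa-1 controls, 17.6% of all probe sets were lower in glp-1 controls. The differences were -4.96 for glp-1, -3.68 for lst-1, -2.97 for fbf-2, -2.79 for fbf-1 and -1.47 for lag-1 (limma adjusted p = 1.46e-05 for fbf-2, smaller for the other 4), while sygl-1 gave -0.18 (limma adjusted p = 0.6109). Both comparisons of controls use the same glp-1 control arrays, so they are not independent of each other.

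**Figure D2:**
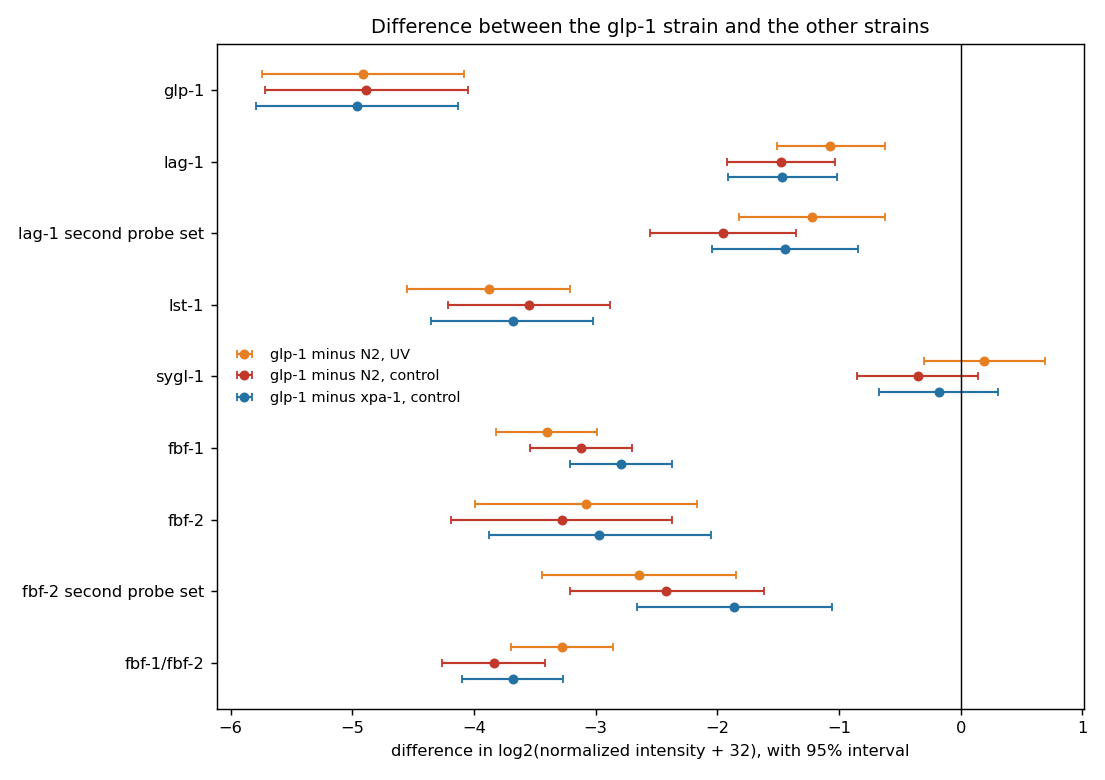
Difference between glp-1 and the other strains for each probe set (points, with 95% intervals from the limma fit, n = 4 arrays per group) in log2(normalized intensity + 32). All intervals lie below 0 except the 3 of sygl-1, and the points of lag-1 lie nearest to 0 among the genes that passed.

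The main lag-1 probe set had a smaller difference than the main sets of glp-1, lst-1, fbf-1 and fbf-2. Within each array the lag-1 level minus the mean level of those 4 genes was 3.69 to 4.76 in glp-1 controls and 1.14 to 2.40 in N2 controls, and 3.70 to 5.00 in UV-exposed glp-1 and 1.19 to 2.04 in UV-exposed N2. With the second lag-1 set the control arrays of the strains overlapped, at -0.90 to 2.11 in glp-1 and -1.79 to -0.39 in N2. The UV-exposed arrays did not overlap on that set, at 0.65 to 1.88 in glp-1 and -1.89 to -0.55 in N2. This contrast was picked after the values were seen, so it is given as a description with no test. In glp-1 controls the other 4 genes had means of 5.64 (glp-1), 6.62 (lst-1), 5.55 (fbf-1) and 5.91 (fbf-2), against 10.11 for the main lag-1 set. Low signals are compressed on this scale, so the fall of these 4 genes is understated more than that of the main lag-1 set.

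In order of level, the 4 xpa-1 and N2 groups always came above both glp-1 groups for the 5 called genes on their main probe sets. How many of all genes have this order is not given here. The means of those 4 groups spanned 0.26 for glp-1, 0.48 for lag-1, 0.22 for lst-1, 0.42 for fbf-1 and 0.32 for fbf-2. The step down to the nearer glp-1 group was 4.65 for glp-1, 1.07 for lag-1, 3.55 for lst-1, 2.79 for fbf-1 and 2.77 for fbf-2. Within the xpa-1 and N2 groups the order of the means has no weight, since the pairs tested (xpa-1 against N2, UV against control) did not pass, and the glp-1 groups with and without UV did not pass either.

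Both years showed the strain difference by themselves. In the 2008 arrays alone the glp-1 minus N2 control difference was -5.28 for glp-1, -1.32 for lag-1, -3.85 for lst-1, -2.84 for fbf-1 and -3.55 for fbf-2, and in the 2007 arrays alone -4.50, -1.63, -3.25, -3.40 and -3.02, in the same order of genes. Each of these passed in limma fits of 2 against 2 arrays that pool the spread over all 6 groups of the year. The largest limma adjusted p among these 5 genes was 0.0095 in 2008, for lag-1, and 0.0360 in 2007, for fbf-2. The second fbf-2 set did not pass in 2007 alone (-1.95, limma adjusted p = 0.0802) and did in 2008 alone (-2.89, limma adjusted p = 3.96e-05).

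**Figure D3:**
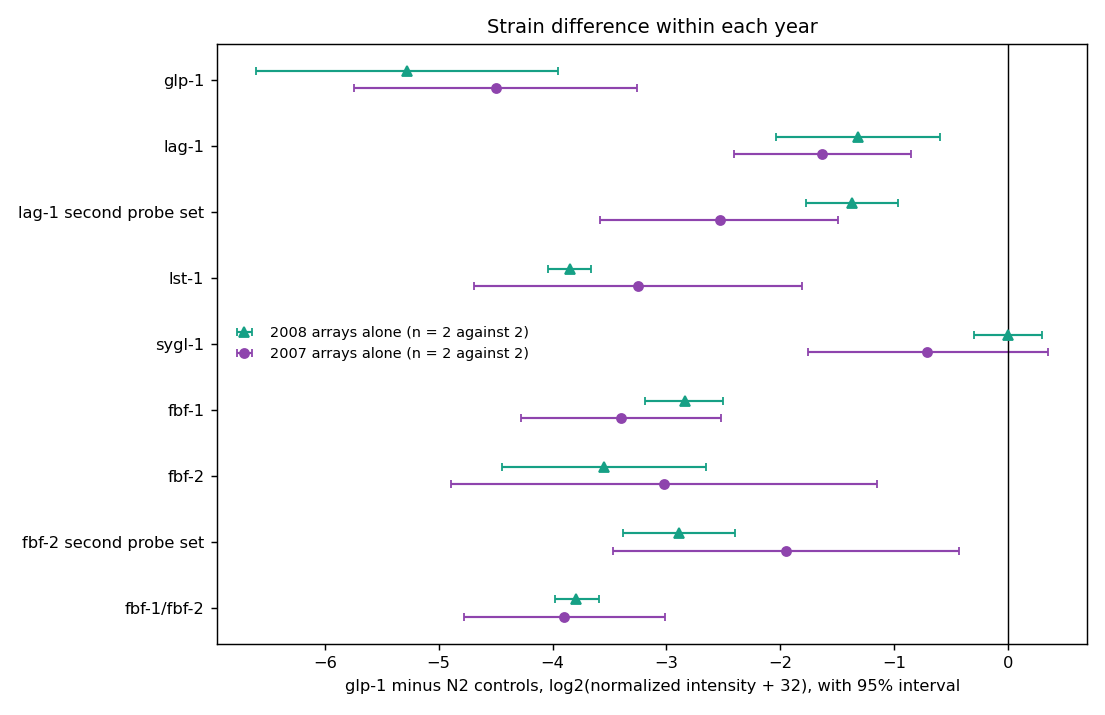
Difference between glp-1 and N2 controls within each year (triangles 2008, circles 2007; points with 95% intervals, n = 2 against 2 arrays) in log2(normalized intensity + 32). The 2008 intervals are narrower for every set but that of glp-1, and sygl-1 is the gene whose intervals include 0 in both years.

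No UVC response of these transcripts passed in any of the 3 strains. In glp-1 animals the differences between UV and control over the 9 probe sets ran from -0.20 to 0.74, in xpa-1 animals from -0.24 to 0.66 and in N2 from -0.28 to 0.26. By limma 0 of the 6 genes passed in any strain, where 0% of all probe sets passed in glp-1, 0.031% in xpa-1 and 0% in N2. At an unadjusted p under 0.05 stood 2 of the 9 sets in glp-1, 0 in xpa-1 and 0 in N2, and over all probe sets 1637, 1307 and 611. Over the 9 sets the outermost ends of the 95% intervals were -0.87 and 1.34 in glp-1, -0.73 and 1.45 in xpa-1 and -0.91 and 1.09 in N2. Single sets had narrower intervals, such as -0.61 to 0.22 for fbf-1 in glp-1. There fbf-1 lay at 5.06 to 6.04, near the lowest possible value, where the added constant compresses changes. Over the processing alternatives this difference ranged from -1.18 to 0.21. A change inside the interval of its own set is not excluded, nor is a larger one for sets near the lowest value.

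For the receptor gene glp-1 itself the UV minus control difference was 0.24 in glp-1 (95% interval -0.60 to 1.07), 0.17 in xpa-1 (-0.66 to 1.0) and 0.26 in N2 (-0.57 to 1.09). Without the glp-1 array UV 2008-1 the value in glp-1 turned to -0.29 (SE 0.31, limma adjusted p = 0.852). For lst-1 it was -0.20 in glp-1 (-0.87 to 0.47), 0.08 in xpa-1 (-0.58 to 0.75) and 0.13 in N2 (-0.53 to 0.80). In glp-1 the sets with an unadjusted p under 0.05 were the one shared by fbf-1 and fbf-2 and the second lag-1 set. The shared set was at 5.79 ± 0.54 after UV and 5.18 ± 0.14 in controls (SD, n = 4 each), and the second lag-1 set at 7.38 ± 0.97 after UV and 6.63 ± 1.34 in controls. Their differences were 0.61 (limma adjusted p = 0.5353) and 0.74 (limma adjusted p = 0.5920). Other sets of the same genes gave -0.20 for fbf-1, 0.20 for fbf-2, -0.03 for the second fbf-2 set and 0.13 for the brighter lag-1 set. In the same comparison 8 of the 23 germ line marker genes had an unadjusted p under 0.05 and 0 passed, with a median of 0.27 against 0.00 over all genes. Their part in the fbf and lag-1 values was not tested.

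A difference of the UV effect between strains was not detectable either. Its difference between glp-1 and N2 ran from -0.33 to 0.73 over the 9 sets, with 0 of the 6 genes called and 0% of all probe sets. Its difference between xpa-1 and N2 ran from -0.09 to 0.54, with 0 of the 6 genes called and 0% of all probe sets. At an unadjusted p under 0.05 stood 0 of the 9 sets in each, against 934 and 450 of all probe sets.

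**Figure D4:**
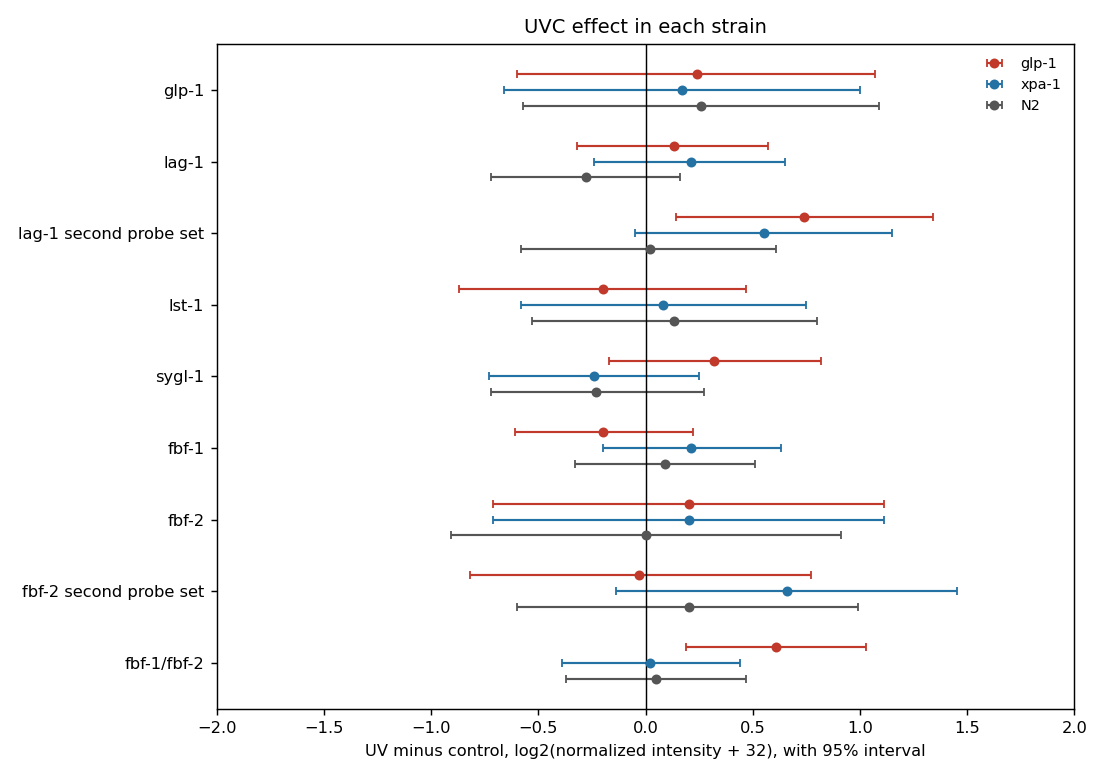
UV minus control difference of each probe set in glp-1, xpa-1 and N2 (points with 95% intervals, n = 4 arrays per group) in log2(normalized intensity + 32). All 27 intervals but 2 include 0, the exceptions being the second lag-1 set and the set shared by fbf-1 and fbf-2, both in glp-1.

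No difference of the pathway genes between xpa-1 and N2 passed. Between controls the xpa-1 minus N2 differences ran from -0.56 to 0.13 over the 9 sets, and after UV from -0.20 to 0.48. By limma 0 of the 6 genes passed in either, where 0.00887% of all probe sets passed between controls and 0.0133% after UV. Over the 9 sets the outermost ends of the 95% intervals were -1.35 and 0.91 between controls and -1.03 and 0.92 after UV. At an unadjusted p under 0.05 stood 0 of the 9 sets between controls and 1 after UV, against 842 and 683 of all probe sets. That set was the brighter lag-1 one after UV, at 11.78 ± 0.48 in xpa-1 and 11.30 ± 0.35 in N2 (SD, n = 4 each). Its difference was 0.48 (limma adjusted p = 1.0), and the second lag-1 set gave 0.03.

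The years differed for several of these genes, but the direction depended on how the arrays were scaled. On the scale used here lag-1 and fbf-1 were lower in 2008 than in 2007, by -0.56 (SE 0.13, limma adjusted p = 0.0027) and -0.52 (SE 0.12, limma adjusted p = 0.0024), and lst-1 was higher by 0.53 (SE 0.19, limma adjusted p = 0.0297), where 52.1% of all probe sets passed in either direction. The second lag-1 set went the other way, by 1.58 (SE 0.14, limma adjusted p = 5.32e-07). On values as deposited lag-1 stood at 2.91 and fbf-1 at 2.18, both higher in 2008. Values as deposited keep the brighter signal of the 2008 arrays. Amplification started from 100 ng of total RNA with one kit in 2008 and from 500 pg with another in 2007, so year, kit and input cannot be told apart. Between the years 22 of 28 sperm markers were lower in 2008 and 0 higher (median -1.56), and of 23 germ line markers 9 were higher and 5 lower (median 0.27), against 20.3% higher and 30.5% lower of all genes. Most of the 28 sperm markers are genes of the msp family, and how far their probe sets share signal was not tested. The part of these markers in the year differences of lag-1, fbf-1 and lst-1 was not tested. The glp-1 minus N2 control difference itself was compared between years, and 0 of the 6 genes passed, where 1.33% of all probe sets did. At an unadjusted p under 0.05 stood 1 of the 9 sets there, the second lag-1 set, whose glp-1 minus N2 difference was less negative in 2008 by 1.16 (SE 0.49, limma adjusted p = 0.3163). With values as deposited, median centring or quantile normalization within each year, 4 of the 6 genes (glp-1, lst-1, fbf-1 and fbf-2) passed in that comparison, each further below N2 in 2008. As deposited, the xpa-1 and N2 arrays had glp-1 at 110.6 to 523.6 in 2007 and 1938.4 to 4095.5 in 2008. For fbf-1 they had 17.96 to 93.31 and 322.1 to 858.4. The added constant compresses low signals, so on values as deposited the 2007 strain differences are understated more than those of 2008.

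Other genes of the pathway were drawn from lists of known ligands, receptor and processing factors, targets, and partners of FBF. Among all genes 21.1% were higher and 18.6% lower in glp-1 controls than in N2 controls, and the median gene stood at 0.07. The median of all probe sets moved between -0.09 and 0.31 with the scaling, so small differences are to be read against that shift. Of the probe sets called, 52.3% were higher in glp-1 on the scale used here, 27.7% on values as deposited and 58.1% after scaling to the 75th percentile.

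Of 14 measured ligand genes 2 were higher, 2 were lower and 10 did not pass (median -0.00). The ligand of the distal tip cell, lag-2, was at 5.27 ± 0.40 in glp-1 controls and 5.64 ± 0.50 in N2 controls (SD, n = 4 each), close to the lowest value in both, and did not pass (-0.37, SE 0.24, limma adjusted p = 0.2561). The ligand gene dsl-2 was at 5.00 in glp-1 controls and 8.91 ± 0.69 in N2 controls and fell (-3.91, SE 0.26, limma adjusted p = 3.11e-10). The ligand apx-1, which the early embryo uses to signal through maternal GLP-1, also fell (-2.48, SE 0.43, limma adjusted p = 8.55e-05), though its second probe set did not pass at -0.59. The secreted co-ligand genes osm-11 (0.52) and dos-1 (1.73) rose, but on values as deposited neither passed.

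Among 18 genes for receptors, processing and transcription factors, 8 fell, 9 did not pass and 1 rose (median -0.43). The other Notch receptor, lin-12, was at 7.06 ± 1.2 in glp-1 controls and 7.67 ± 0.43 in N2 controls and did not pass (-0.61, SE 0.66, limma adjusted p = 0.5368). Genes of the proteases that cut the receptor, and of their relatives, either fell or did not pass. The presenilin hop-1 (-3.29), the gamma-secretase subunit pen-2 (-1.77) and the ADAM metalloprotease sup-17 (-1.23, with all 3 of its probe sets lower) fell. So did the gamma-secretase subunits aph-1 (-2.40, limma adjusted p = 4.89e-06) and aph-2 (-0.66, limma adjusted p = 0.0113). The presenilins sel-12 (0.24, limma adjusted p = 0.3025) and spe-4 (0.42, limma adjusted p = 0.4285) did not pass. Nor did another ADAM metalloprotease, adm-4 (0.07, limma adjusted p = 0.8890). The genes aph-1, aph-2, sel-12, spe-4 and adm-4 are named after their values were seen. Without the year term pen-2 did not pass. The F-box gene sel-10, which limits Notch activity by protein turnover, fell too (-1.31). The transcriptional co-activator sel-8 had a mean of 5.00 in every group, so nothing can be read from it.

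The 10 measured target genes were split, with 2 lower, 3 higher and 5 not passing (median 0.12). The phosphatase gene lip-1, a GLP-1 target in the germ line, did not pass (-0.07, SE 0.40, limma adjusted p = 0.9296) and had group means of 5.11 to 6.17. Targets of LIN-12 in the vulva went both ways: lst-2 rose (0.88), and ark-1 (-1.24) and lst-4 (-0.96) fell. The LIM homeobox gene lin-11 rose (1.64). On values as deposited lst-2 (0.45) and lin-11 (0.24) did not pass. The other 3 probe sets of lst-4 ranged from -0.86 to 0.23, and none of them passed, nor did the second sets of lst-2 (1.37) and ark-1 (-0.71).

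The largest share of falling genes among the 4 pathway lists was in the FBF network and other stem cell regulators, where 23 of 30 fell, 6 did not pass and 1 rose (median -2.13). Among those that fell were the PUF-family genes puf-11 (-6.25, SE 0.35) and puf-5 (-6.19, SE 0.38), the RNA-dependent RNA polymerase gene ego-1 (-3.68, SE 0.17) and nos-3, a Nanos-family translational regulator (-1.94, SE 0.15), with limma adjusted p from 2.86e-12 to 3.54e-09. The meiotic entry gene gld-1, a messenger RNA that FBF represses, fell (-5.63, SE 0.34, limma adjusted p = 8.26e-11), but its second probe set did not pass at -0.78. The 1 gene that rose was puf-9, a somatically expressed PUF gene (1.08, SE 0.14, limma adjusted p = 2.41e-06), named here after its value was seen.

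**Figure D5:**
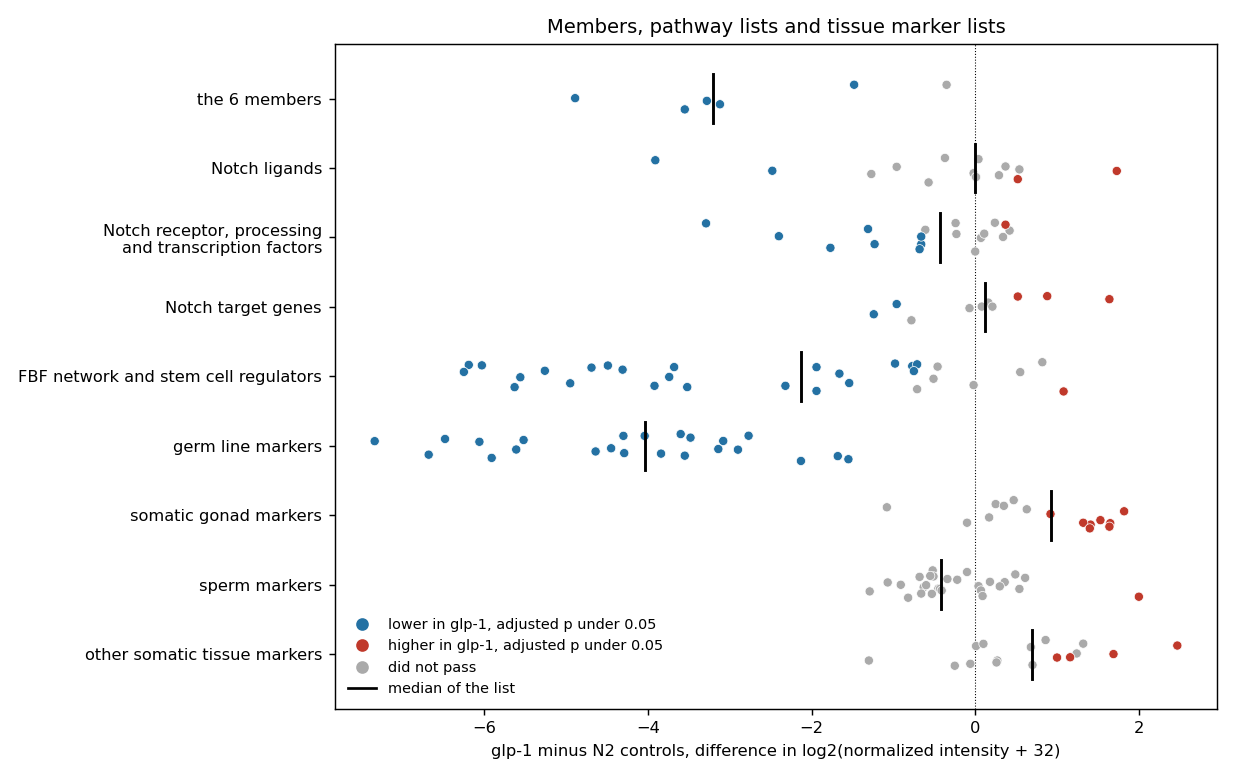
Difference between glp-1 and N2 controls in log2(normalized intensity + 32) for each of the 6 members and each measured gene of 4 pathway lists and 4 tissue marker lists (points are genes, blue lower and red higher at a limma adjusted p under 0.05, grey not passing; black bars are medians). The members, the FBF network and the germ line markers extend far below 0, with list medians of -2.13 and -4.04 for the last 2.

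Markers of the germ line, listed with earlier results of these data known, moved with these genes. All 23 germ line marker genes were lower in glp-1 controls than in N2 controls (median -4.04), and their summed normalized intensity was 1701 to 3281 in the glp-1 arrays and 42328 to 57440 in the 16 others. Of the 23, 0 to 6 were at 0 in a glp-1 array and 0 in every other array; oma-1 and oma-2, RNA-binding proteins of oocytes, were at 0 in 6 and 5 of the 8 glp-1 arrays. Of 15 genes listed as somatic gonad markers, 8 were higher and 0 lower (median 0.92) on this scale, and 5 to 10 were higher under the other scalings. The 7 that did not pass were gon-1, mig-6, lim-7, hlh-12, ehn-3, hnd-1 (-1.08) and emb-9. Sums over the list were 13157 to 17758 in glp-1 arrays and 6241 to 9421 in the others. Whether the higher signal came from the gonad or from other tissues was not tested. Of 16 markers of other somatic tissues 4 rose and 0 fell (median 0.69), and 1 to 8 rose under the other scalings. Their sums were 29805 to 41164 in glp-1 and 23858 to 33015 in the others. Among all genes 21.1% were higher and 18.6% lower in this comparison, so the count for other somatic tissues is near that share. Sperm markers rose in 1 of 28 cases and fell in 0 (median -0.42), but the years ran in opposite directions. In 2008 their sums were 2095 to 3389 in glp-1 arrays and 505 to 1181 in the others, without overlap, and in 2007 they were 2624 to 7162 in glp-1 arrays and 5907 to 27241 in the others. In the 2008 arrays alone 13 of the 28 passed as higher in glp-1 controls, where 5853 of all 22548 probe sets did. Most of the 28 are msp genes, whose probe sets may share signal. The part of these marker differences in the fall of glp-1, lag-1, lst-1, fbf-1 and fbf-2 was not tested.

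Likeness to a member was measured as the Pearson correlation of year-centred levels over the 24 arrays. The genes most like glp-1 were C42C1.8 (Pearson r 0.994), mex-5 (0.992), an RNA-binding protein of oocytes and early embryos, and syp-3 (0.991), a synaptonemal complex protein. For lag-1 they were enri-2 (0.945), T04D3.1 (0.943) and T01G5.7 (0.942), for lst-1 metl-6 (0.994), R07B7.2 (0.993) and aspm-1 (0.992), for fbf-1 swah-1 (0.989), rif-1.1 (0.989) and spsb-2 (0.988), and for fbf-2 exo-1 (0.972), par-2 (0.972) and mdt-6 (0.970). The genes nearest to sygl-1 reached 0.851 (R05D7.2), 0.789 (T04B2.1) and 0.772 (srh-36). Above 0.9 stood 1450 genes for glp-1, 531 for lag-1, 1457 for lst-1, 1519 for fbf-1, 800 for fbf-2 and 0 for sygl-1, and these correlations describe 2 separate clusters of arrays. Within the 16 xpa-1 and N2 arrays mex-5 stayed at 0.80 with glp-1 and C42C1.8 at 0.88, while syp-3 was at 0.31 with glp-1 and aspm-1 at 0.07 with lst-1. Between members, glp-1 and lst-1 correlated at 0.95 over 24 arrays and 0.70 over the 16, glp-1 and fbf-1 at 0.95 and 0.08, and glp-1 and fbf-2 at 0.89 and -0.38. The arrays share year, kit and scaling, and no test is given for these values.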

How the data were processed

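Expression was measured in 24 whole-animal RNA samples on single-channel Affymetrix arrays, each belonging to 1 of 6 groups by its title (3 strains, with or without UVC) and to 2007 or 2008. Per the labels' protocols, the input was 500 pg in 2007 (TargetAmp kit) and 100 ng in 2008 (Affymetrix kit with 2 cycles). The deposited values are linear intensity per probe set, 18.6% of them below 0; the authors' summary, background and scaling steps are not given in the sources.

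Values were quantile normalized over the 24 arrays, set to at least 0 and taken as log2(value + 32); 15.5% of normalized values were at or below 0. limma 3.58.1 (R 4.3.3) fitted a mean per strain and treatment plus a year term over all arrays (17 residual and 2.24 prior degrees of freedom). Contrasts between years came from a mean per group and year. The Benjamini-Hochberg adjustment of two-sided p-values ran over the 22548 probe sets, with calls at 0.05. The fit was tested on simulated data.

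The supplied annotation gives 1 gene for 20766 probe sets, several for 887 and none for 895, and the supplied WBcel235 gene table changed 0 symbols. Each gene is represented by the brightest of the probe sets that name no other gene. All 6 members and their probe sets are named. From each pathway list the 4 genes with the smallest p between glp-1 and N2 controls are named, and always lin-12, lag-2, sel-8, lip-1, gld-1 and nos-3. For each member the 3 genes with the highest correlation are named. The 8 lists held 171 genes, of which 154 were measured. Members and lists were chosen with earlier results of these data known.

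A possible pairing of arrays by replicate number was checked by taking replicate 1 minus replicate 2 within a group and year and correlating it between groups over 17118 genes. The correlation passed 0.1 in both years for xpa-1 minus N2 after UV (0.31 in 2008, 0.19 in 2007) and for UV minus control in glp-1 (0.40 and 0.11), and not in the other comparisons; no label states that numbers share a culture. Alternatives were other scalings, constants, variance models and probe set rules, a filter, a replicate block, single years and each array left out. No sequences of these genes were used here.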

Additional observations from a re-analysis of the deposited data

Results flagged for a closer look

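Single arrays that stood far from the other 3 of their group were looked for in 54 groups of 4 (9 probe sets in 6 groups). In all, 5 were found. The cut-off flags about 1 in 20 groups of independent, normally distributed values. That rate does not hold for groups with values at 5.00 or with a difference between years, so the count is not set against chance. The glp-1 transcript was at 7.39 in the UV-exposed glp-1 array 2008-1, against 5.16 to 5.52 in the others of its group. This array also had the highest germ line marker sum among the glp-1 arrays, but control 2008-2, with the next highest, had glp-1 at 5.00. The glp-1 transcript was at 11.15 in UV-exposed xpa-1 2007-2, against 10.62 to 10.66, and at 10.40 in the N2 control 2007-1, against 10.56 to 10.58. The sygl-1 set was at 5.75 in UV-exposed N2 2007-2, where the other 3 were at 5.00. The second fbf-2 set was at 6.90 in UV-exposed glp-1 2007-2, against 5.28 to 5.43.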

How the results depend on the processing

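The 39 alternatives, 24 of which leave out an array, kept the direction and the call of glp-1, lag-1, lst-1, fbf-1 and fbf-2 in all 3 comparisons of glp-1 with another strain. Between glp-1 and N2 controls the differences ranged from -7.41 to -3.66 for glp-1, -2.22 to -1.27 for lag-1, -4.20 to -2.83 for lst-1, -4.66 to -2.05 for fbf-1 and -4.75 to -2.32 for fbf-2, and the largest adjusted p was 0.036 there, 0.0495 after UV and 0.0313 against xpa-1. The sygl-1 set was never called in these comparisons and has no value with the dimmest 40% of probe sets left out. No member was called in a UV, xpa-1 or UV-by-strain comparison under any alternative; with the replicate block 0 members were called in each, 2 probe sets in all for xpa-1 minus N2 after UV and 0 for UV minus control in glp-1, and it changed no call of a member in the strain comparisons.

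The year difference depended on the scaling. Values as deposited and quantile normalization within each year keep the brighter signal of the 2008 arrays, so higher counts there are not particular to these genes. The share of all probe sets called in each alternative is not given here. Of the members 2 were lower and 1 higher in 2008; as deposited 0 were lower and 5 higher, with median centring 1 and 5, with quantile normalization within each year 0 and 5, with log2(value + 1) 1 and 0, with the replicate block 1 and 0, and with 75th percentile scaling 0 were higher. Leaving out single arrays gave 0 to 1 higher; the call of lst-1 was lost without glp-1 control 2008-2, glp-1 UV 2007-2 or 2008-2, xpa-1 control 2008-2, or xpa-1 UV 2007-1 or 2008-2 (0.44 to 0.52). The sign turned for lag-1 to 2.91 as deposited, 0.96 with median centring, 2.89 within each year and 0.51 as a mean of both sets, and for fbf-1 to 2.18, 0.22 and 2.17 in the first 3. For the strain difference between years, as deposited, with median centring and within each year 4 members were called lower, and fbf-1 turned to -2.51, -1.80 and -2.27. On values as deposited the 2007 signals were lower, so the added constant understates the 2007 strain differences more than those of 2008. How much of the differences between years comes from this was not tested.

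Of called probe sets between glp-1 and N2 controls 52.3% were higher, against 27.7% as deposited and 58.1% with 75th percentile scaling. Under the other scalings the FBF network had 20 to 24 genes lower, the germ line markers 23, and the somatic gonad markers 5 to 10 higher. Leaving out 1 array ended the call of osm-11 (0.47 without N2 control 2008-2) and of dos-1 (1.42 without N2 control 2008-2, 1.51 without glp-1 control 2007-2). Signals near the lowest value limit what can be read of sygl-1, lag-2, lip-1 and sel-8.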
